A study of Mus musculus with 1298 samples.

Results

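The 6 genes of the mouse platelet-derived growth factor (PDGF) system, the receptors *Pdgfra* and *Pdgfrb* and the ligands *Pdgfa*, *Pdgfb*, *Pdgfc* and *Pdgfd*, were read by symbol from every expression table. They were 6 of the 17634 genes of the 10× table, of the 22894 genes of the Smart-seq2 (ss2) table and of the 22938 genes of the bulk table. The question was which cell types of the *Pax7* lineage held receptor RNA, which held ligand RNA, and at which embryonic day. Mouse embryos of the genotype Pax7CreER (Gaka):R26R-stop-EYFP were exposed to tamoxifen at E9.5 through the mother, which leaves a permanent YFP label in cells that expressed *Pax7* at that time and in their descendants. After removal of head, limbs and viscera, YFP+ cells of the trunk were sorted on 3 days (E12.5, E14.5, E16.5), and their RNA was profiled one cell at a time by 10× or ss2. Every cell thus carried both alleles and the same treatment, no untreated group was read here, and embryos of a day were pooled before sorting. Bulk libraries of sorted E16.5 cells that were negative for Pdgfra protein and positive for Cd36 (the brown adipocyte gate) were read for levels alone.

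PDGFs are secreted dimers that bind receptor tyrosine kinases on neighboring cells. PDGF-A and PDGF-C act mainly through Pdgfra, PDGF-B acts through both receptors, and PDGF-D acts mainly through Pdgfrb, while PDGF-C and PDGF-D must be cut by proteases before they bind. In embryos *Pdgfra* is a well-known gene of mesenchyme, *Pdgfrb* is known for its role in pericytes around vessels, and the myotome is a known source of PDGF-A for the mesenchyme around it.

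Since *Pdgfra* was low and *Pdgfa* and *Pdgfc* were high in muscle cells, the 250 bases before the annotated start of each of these are printed below from the promoter sequences of RefSeq (GRCm38.p6). Capitals mark E-boxes (CANNTG, a palindrome and so the same on both strands), the motif bound by the myogenic factors of the Myod1 family. For *Pdgfra* the window is chr5:75152001-75152250 on the plus strand, for *Pdgfa* chr5:138994945-138995194 on the minus strand and for *Pdgfc* chr3:81036166-81036415 on the plus strand.
Pdgfra: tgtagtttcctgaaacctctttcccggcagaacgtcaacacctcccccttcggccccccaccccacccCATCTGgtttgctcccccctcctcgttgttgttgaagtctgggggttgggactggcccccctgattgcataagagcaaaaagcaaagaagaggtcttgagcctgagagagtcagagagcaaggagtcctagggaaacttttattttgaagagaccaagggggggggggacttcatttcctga
Pdgfa: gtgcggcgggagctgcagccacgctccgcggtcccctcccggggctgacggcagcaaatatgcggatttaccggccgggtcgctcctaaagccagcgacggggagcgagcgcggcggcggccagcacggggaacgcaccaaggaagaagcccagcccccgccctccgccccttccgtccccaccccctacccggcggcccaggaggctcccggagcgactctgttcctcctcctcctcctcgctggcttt
Pdgfc: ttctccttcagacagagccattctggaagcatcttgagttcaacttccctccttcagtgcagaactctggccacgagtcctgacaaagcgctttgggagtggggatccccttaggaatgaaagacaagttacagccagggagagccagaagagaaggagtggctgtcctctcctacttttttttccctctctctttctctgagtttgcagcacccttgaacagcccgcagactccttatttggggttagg
The *Pdgfra* window held 1 E-box, CATCTG. No E-box lay in the windows of *Pdgfa* or *Pdgfc*, nor in a further *Pdgfa* window (138994282 to 138994531 on the minus strand) or that of *Pdgfd* (chromosome 9, 6168236 to 6168485 on the plus strand). Of all 32851 windows of this length, 66.2% held at least 1 E-box. GC content was 54.4% for *Pdgfra*, 72.4% for the printed *Pdgfa* window and 50.8% for *Pdgfc*.

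By the annotation of GENCODE vM21 on GRCm38, *Pdgfra* lies on chromosome 5 from 75152292 to 75198215 on the plus strand and *Pdgfrb* on chromosome 18 from 61045150 to 61085061 on the plus strand. *Pdgfa* lies on chromosome 5 from 138976014 to 138997370 on the minus strand, *Pdgfb* on chromosome 15 from 79995874 to 80014977 on the minus strand, *Pdgfc* on chromosome 3 from 81036416 to 81214040 on the plus strand, and *Pdgfd* on chromosome 9 from 6168584 to 6378850 on the plus strand. All are protein-coding, and counts refer to exons. By this annotation both *Pdgfa* windows above lie inside the gene, since they precede RefSeq starts and not the outermost GENCODE start. Bases before that outermost start were not searched for E-boxes.

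Of 3916 deposited cells 3852 were kept. By day (E12.5, E14.5, E16.5, the order used throughout) the median depth was 2185, 5930 and 1607.5 unique molecular identifiers (UMIs) per 10× cell, and 393416, 769833 and 829590 expected counts per ss2 cell. The 10× libraries were 1 per day, and 3 barcodes occurred in more than 1 of them. Clusters were named from marker genes among which no PDGF gene stood, as early progenitor-like (EP-like, 10.5% of the kept cells, 400 of them from E12.5), late progenitor-like (LP-like, 20.5%), dermal fibroblast-like (DF-like, 14.1%), brown adipocyte-like (BA-like, 4.52%), early muscle-like (EM-like, 18.1%), late muscle-like (LM-like, 6.18%), neuron-like (N-like, 16.7%), neural progenitor-like (NP-like, 7.45%) and pericyte-like (PE-like, 1.48%, or 57 cells). The weakest name was EP-like, for which 4 of 8 markers were detected in at least 5% of cells. Its mean marker z-score was 0.2764, against a minimum of 0.25. Summed EP-like markers were higher in DF-like than in EP-like cells on 10× (747.96 against 718.84 CPM). On ss2 they were higher in PE-like cells (618.59 against 602.86 CPM). At resolution 1.2 a cluster of E12.5 cells, larger than the EP-like one, scored 0.2468 and stayed unnamed. The 21 cells of 1 cluster were left unnamed, though this cluster scored 0.8532 on the EP-like list. Summed EM-like markers were also high in LP-like cells, at 2058 against 3055 CPM in EM-like cells on 10× and 4584 against 6241 CPM on ss2. *Itm2a*, 1 of these markers, was among the leading genes of LP-like clusters too. A pool below is 1 platform and 1 day. A level in CPM is the gene's share of all counts of the class in that pool, scaled as counts per 1e6, in which deep cells weigh more than shallow ones, and intervals are exact Poisson or exact binomial intervals at 95% that cover counting error only.

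*Pdgfra*, which encodes the receptor of mesenchymal cells, was highest in the 3 mesenchymal classes on both platforms. On ss2 it stood at 303.6 CPM in EP-like cells of E12.5. LP-like cells of E14.5 and E16.5 held 455.9 and 204.8 CPM, and DF-like cells of the same days 700.6 and 369.1 CPM. On 10× EP-like cells held 61.985 CPM (interval 42.4 to 87.5), LP-like cells 61.4 and 87.03 CPM and DF-like cells 126.1 and 187.1 CPM. DF-like cells were above LP-like cells in each of the 4 pools that held both. A *Pdgfra* count was found in 39 of 39 DF-like ss2 cells of E14.5 and 66 of 66 of E16.5, in 91.7% of LP-like and in 86.2% of EP-like ss2 cells, against 8.95% of N-like ss2 cells. On 10×, where the median LP-like cell had 3854 UMIs, 22.4% of 634 LP-like cells held a UMI, against 2.43% of N-like cells with a median of 3313 UMIs. At an equal depth of 1000 UMIs these shares were 8.17% and 0.941%. The 10× share of EM-like cells, 0.935% before thinning, was below that of N-like cells and is read as background.

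Outside the mesenchyme *Pdgfra* was lower, and its level in early muscle at E12.5 was above the later days on ss2 only. EM-like cells held 45.6, 1.97 and 0.0597 CPM on ss2 over the 3 days, and 6.49, 0 and 7.21 CPM on 10×, where 3, 0 and 2 UMIs were counted. N-like cells held 6.28 and 4.47 CPM on ss2 at E12.5 and E14.5, and 7.43 and 3.65 CPM on 10×. The 6 N-like ss2 cells of E16.5 stood at 39.2 CPM, with a count in 2 of them. NP-like cells held 7.52, 23.5 and 0 CPM on ss2 over the 3 days, and 8.98, 0 and 0 CPM on 10×. BA-like cells of E16.5 held 3.37 CPM on ss2 and 7.94 CPM on 10×. In 42 PE-like cells on 10× no UMI was counted, which allows up to 18.1 CPM, and in the 15 PE-like cells on ss2 the level was 30.6 CPM, of which 61.7% came from 1 cell. All of these values were thus below those of each mesenchymal class in the same pool.

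**Figure D1:**
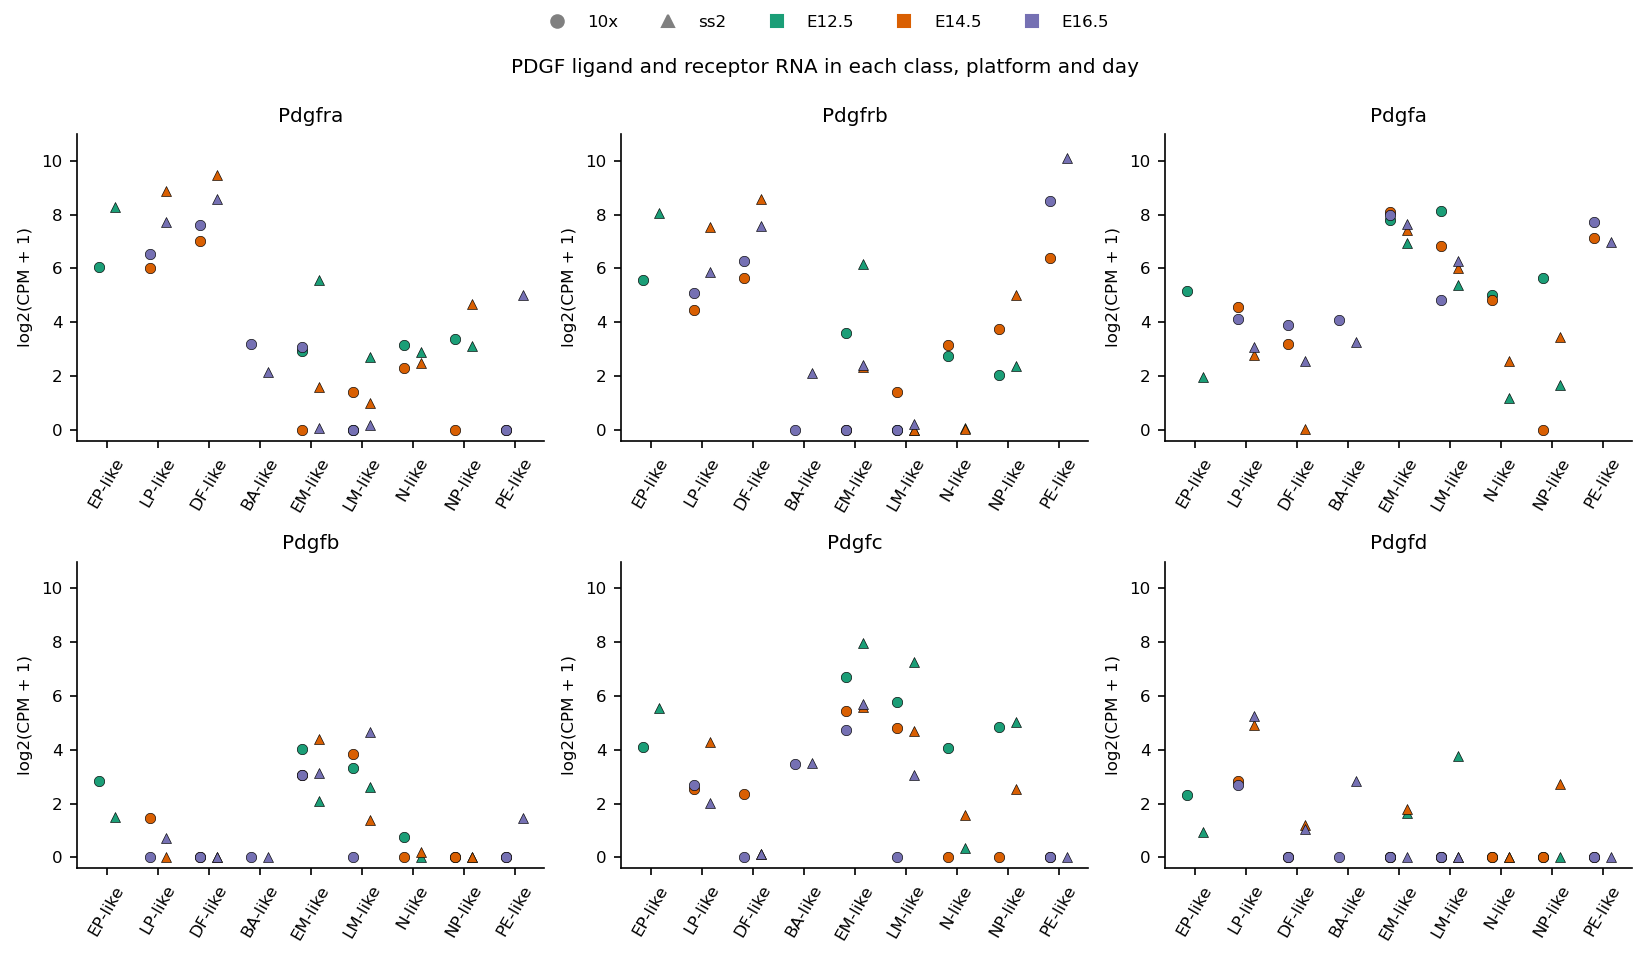
Levels of the 6 genes by class, with 1 point per platform and day in CPM over the 15147 genes of both tables, for sums of at least 10 cells. Both receptors are high in the mesenchymal classes, and *Pdgfa* and *Pdgfc* are high in the muscle classes. In pericyte-like cells *Pdgfrb* and *Pdgfa* are high, but *Pdgfra* is not.

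*Pdgfrb*, the receptor of PDGF-B and PDGF-D, followed *Pdgfra* in the mesenchymal classes and was higher still in PE-like cells. On ss2 it stood at 254.5 CPM in EP-like cells of E12.5, and for E14.5 and E16.5 at 182.4 and 56.05 CPM in LP-like and at 373.7 and 186.6 CPM in DF-like cells. On 10× EP-like cells held 44.55 CPM, LP-like cells 19.9 and 31.65 CPM and DF-like cells 47.3 and 72.65 CPM. The 15 PE-like ss2 cells of E16.5 stood at 1074 CPM, and 12 and 30 PE-like 10× cells of E14.5 and E16.5 at 80.9 CPM (37 to 153.6) and 348.6 CPM (209.9 to 544.4). A count was found in 13 of the 15 PE-like ss2 cells, with 25.4% of the sum in 1 cell. Every PE-like value lay above the LP-like and DF-like values of its own pool, though at E14.5 on 10× its interval overlapped that of DF-like cells (33.1 to 65.5). BA-like cells held no *Pdgfrb* UMI on 10× at E16.5, which allows up to 5.95 CPM, and N-like cells were at 0.0409 and 0.0305 CPM on ss2.

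Both receptors were mostly found in the same mesenchymal cells. On ss2, 98 DF-like cells (93.3%, 86.75% to 97.3%) held counts of both, as did 89 EP-like cells (72.4%, 63.6% to 80.04%) and 97 LP-like cells (61.8%, 53.7% to 69.4%). All DF-like ss2 cells held *Pdgfra*, so their joint count could only equal that of *Pdgfrb*. Were the receptors independent within EP-like and LP-like cells, the shares of each alone would give 87.04 and 96.3 cells, close to the counts found. On 10× both were found in 2 EP-like, 10 LP-like and 23 DF-like cells (0.714%, 1.58% and 5.25%). There the separate shares would give 2.12, 11.9 and 18.5 cells. Of EM-like ss2 cells 8 (4.97%) held both.

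Sums of DF-like cells were set against those of LP-like cells in edgeR, in the 4 pools with at least 20 cells of each class. *Pdgfra* was higher in DF-like sums by a log2 difference of 0.84 (SE 0.138, adjusted p = 0.00378) and *Pdgfrb* by 1.30 (SE 0.179, adjusted p = 0.00135), in 4 of 4 pools each. Of the ligands, *Pdgfd* was lower in DF-like sums by a log2 difference of -4.87 (SE 0.561, adjusted p = 0.000502). It was called in all 12 alternatives that tested it, of 15 for this comparison. Its value ran from -4.92 to -1.97 and was smallest with members allowed in the clustering. Both 10× DF-like sums were at 0 for *Pdgfd*. *Pdgfc* differed by -4.79 (SE 1.42), which passed without the 10× cells of E14.5 (adjusted p = 0.0321) and by DESeq2 (adjusted p = 0.002945), and *Pdgfa* by -2.02 (SE 1.05), with adjusted p of 0.0559 and 0.259 over all pools, and *Pdgfb* was at 0 in every DF-like sum. Of the 6 members, which all passed the filter on low counts, 3 were thus called, against 12.6% of the 14138 genes tested. With the ss2 pools alone the receptor calls were lost, at adjusted p of 0.127 for *Pdgfra* and 0.0513 for *Pdgfrb*.

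PE-like and LP-like cells shared 3 pools with at least 10 cells of each. *Pdgfrb* was higher in PE-like sums by a log2 difference of 3.30 (SE 0.308, adjusted p = 1.224e-24) and *Pdgfa* by 3.27 (SE 0.399, adjusted p = 1.785e-14), while *Pdgfra* was lower, with a log2 difference of -3.25 (SE 0.418, adjusted p = 4.182e-13), in 3 of 3 pools each. These 3 genes were the members that passed the filter, and 18.5% of the 9942 genes tested were called. In this fit edgeR gave all genes a common spread, so the adjusted p-values reflect the spread between pools over all genes more than that of these genes. The calls held in all 13 alternatives, with adjusted p of at most 0.0008805. The fitted *Pdgfra* difference rests on the ss2 pool, since both 10× sums of PE-like cells were at 0, and without that pool it was -8.72, which depends on the prior count. PE-like cells also carried markers of endothelial cells, of which 4 of 8 were found on 10× (134.9 and 110.1 CPM in sum at E14.5 and E16.5, against 43.4 CPM in LP-like cells) and 6 of 7 on ss2 (447.2 CPM, against 122.6 CPM), and their part in these values was not tested.

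**Figure D2:**
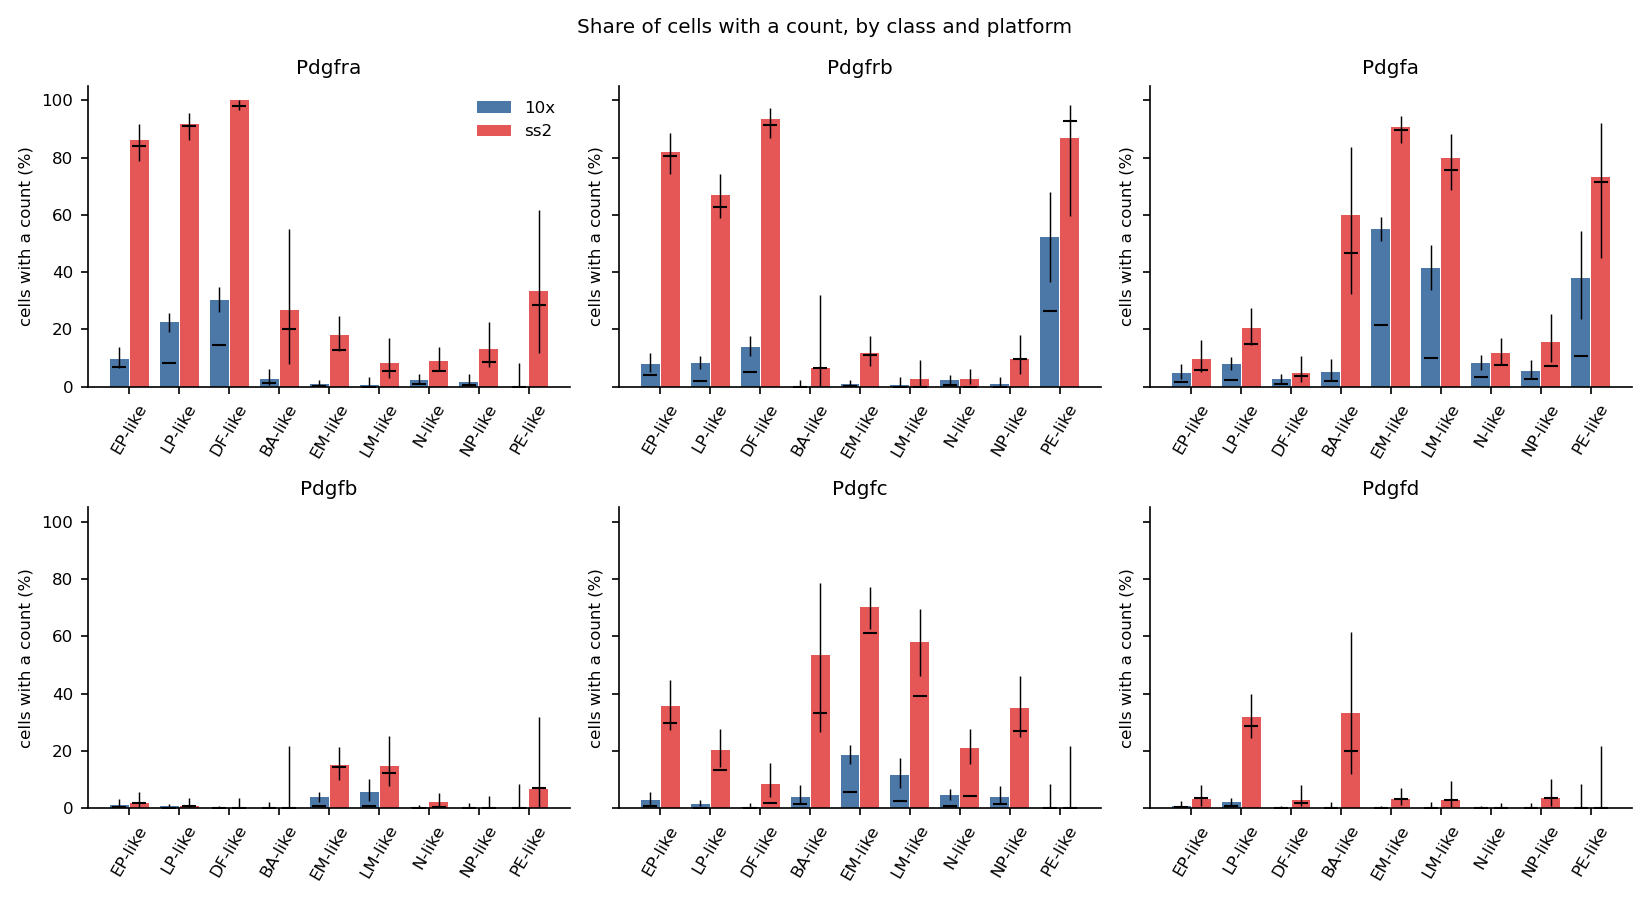
Share of cells of each class with at least 1 count of a gene, as bars with exact 95% binomial intervals, and after thinning every cell to an equal depth, as black dashes. *Pdgfra* was found in 100% of DF-like cells and *Pdgfa* in 90.7% of EM-like cells on ss2.

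*Pdgfa* and *Pdgfc* were the ligands of the muscle classes, and *Pdgfa* was also high in PE-like cells. *Pdgfa*, which encodes the A chain, stood in EM-like cells at 117.98, 165.3 and 193.1 CPM on ss2, and at 216.4 (176.1 to 263.2), 266.97 (243.5 to 292.1) and 248.7 CPM (193.5 to 314.8) on 10×. It was found in 90.7% of EM-like ss2 cells and 55.1% of EM-like 10× cells, against 11.6% and 8.19% of N-like cells, and at equal depth on 10× in 21.4% against 3.29%. No 1 cell held more than 5.04% of the EM-like ss2 sum. PE-like cells held 134.9 (75.5 to 222.4) and 201.85 CPM (100.8 to 361.2) on 10× at E14.5 and E16.5, and 122.4 CPM on ss2 at E16.5, below EM-like cells in each of these pools but with overlapping intervals on 10× at E16.5. The level in EP-like cells was 2.81 CPM on ss2 and 32.9 CPM on 10×, that in LP-like cells 5.72 and 7.27 CPM on ss2 and 22.01 and 15.8 CPM on 10×, and that in DF-like cells 0.0191 and 4.74 CPM on ss2 and 7.88 and 13.2 CPM on 10×. The non-muscle, non-pericyte classes thus lay closer to EM-like cells on 10× than on ss2, where N-like cells stood at 3.28 CPM over all days against 28.98 CPM on 10×. The 10× share of LP-like cells with *Pdgfa*, 7.89%, lay between the 8.19% of N-like and the 2.51% of DF-like cells. At equal depth it was 2.45%, between 3.29% and 1.00%. The N-like level on 10× (21.6 to 38.1) was above the 9.87 CPM of DF-like cells (5.10 to 17.2), so N-like cells are no blank for *Pdgfa*. These shares thus do not tell LP-like RNA from background. On ss2 the LP-like share was above that of N-like cells, at 20.4% against 11.6%, and at equal depth 14.7% against 7.41%.

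*Pdgfc* was the other ligand of muscle and was highest at E12.5. EM-like cells held 244.7, 46.2 and 49.5 CPM on ss2, and 101.7, 41.5 and 25.2 CPM on 10×. A count was found in 91.5%, 69.1% and 54.2% of EM-like ss2 cells on these days. EP-like cells stood at 44.25 CPM on ss2 and 15.5 CPM on 10×, and LP-like cells at 18.2 and 2.95 CPM on ss2 and 4.66 and 5.28 CPM on 10×. Of the EP-like sum on ss2, 30.4% came from 1 cell. NP-like cells of E12.5 held 30.7 CPM on ss2 and 26.9 CPM on 10×, and N-like cells of that day 0.263 and 14.9 CPM, with overlapping intervals on 10× (12.3 to 51.1 and 9.32 to 22.5). EM-like cells were above both progenitor classes in every pool. In EM-like ss2 cells *Pdgfa* and *Pdgfc* counts met in 99 cells (61.5%), where their separate shares would give 102.5.

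Over 6 pools, EM-like sums were compared with the sums of EP-like and LP-like cells together (progenitor-like below). *Pdgfa* was higher in EM-like sums by a log2 difference of 4.31 (SE 0.31, adjusted p = 2.627e-05) and *Pdgfc* by 2.74 (SE 0.338, adjusted p = 0.000402), in 6 of 6 pools each. *Pdgfra* was lower, with a log2 difference of -6.68 (SE 1.23, adjusted p = 0.00336) and so was *Pdgfrb*, with -3.76 (SE 0.581, adjusted p = 0.00147), also in 6 of 6 pools. *Pdgfb* and *Pdgfd* differed by 3.09 (SE 1.21, adjusted p = 0.0838) and -4.10 (SE 1.77, adjusted p = 0.113) and were not called, but passed by DESeq2 (adjusted p = 0.01537 and 0.0151) and without the ss2 cells of E12.5 (adjusted p = 0.0305 and 0.005049). All 6 members passed the filter and 4 were called, against 25.5% of the 13981 genes tested. The *Pdgfa* call held in all 17 alternatives, with adjusted p between 1.065e-41 and 0.022. With the 3 ss2 pools alone the calls of *Pdgfra*, *Pdgfrb* and *Pdgfc* were lost, at adjusted p of 0.138, 0.0997 and 0.0997.

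**Figure D3:**
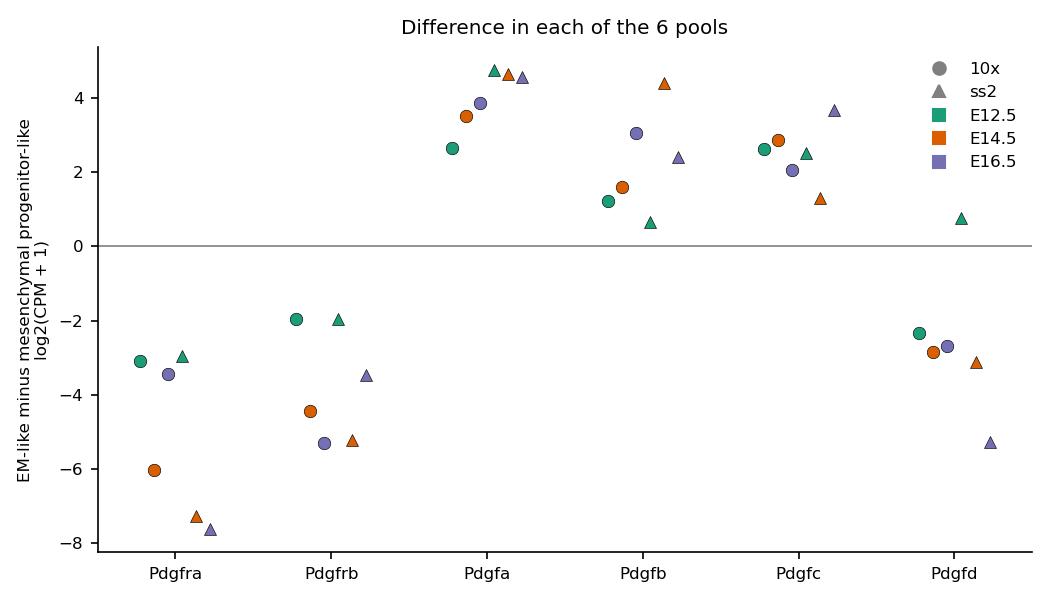
Level of each gene in EM-like sums minus that in progenitor-like sums, as the log2 difference of CPM + 1 over the genes of both tables, with 1 point per platform and day. All 6 pools lie above 0 for *Pdgfa* and *Pdgfc* and below 0 for *Pdgfra* and *Pdgfrb*.

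LM-like cells, which express genes of muscle fibers, held less of both muscle ligands than EM-like cells. *Pdgfa* stood at 39.9, 61.97 and 74.1 CPM on ss2, and at 269.9, 109.3 and 26.99 CPM on 10×, so on 10× at E12.5 the LM-like value (183.4 to 383.2) was above the EM-like one. *Pdgfc* stood at 145.9, 24.4 and 7.24 CPM on ss2 and at 52.25, 26.1 and 0 CPM on 10×. Over the 5 pools with at least 20 cells of each, *Pdgfa* was lower in LM-like sums by a log2 difference of -1.00 (SE 0.245, adjusted p = 0.00265) and *Pdgfc* by -1.25 (SE 0.361, adjusted p = 0.0104). *Pdgfb* differed by -0.24 (SE 0.844, adjusted p = 0.874). These were the 3 members past the filter, and 23.9% of 10173 genes were called. The *Pdgfc* call was lost without the ss2 cells of E16.5 (-0.76, adjusted p = 0.1175) and on 10× or ss2 alone (adjusted p = 0.237 and 0.187).

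*Pdgfb*, which encodes the B chain, was low in every class. In EM-like cells it stood at 3.195, 19.8 and 7.66 CPM on ss2 and at 15.15, 7.29 and 7.21 CPM on 10× (7, 13 and 2 UMIs), and in LM-like cells at 4.89, 1.56 and 23.9 CPM and at 8.71, 13.05 and 0 CPM. A count was found in 14.9% of EM-like and of LM-like ss2 cells, against 2.105% of N-like cells. DF-like and BA-like cells held no *Pdgfb* count on either platform, so that up to 2.47 CPM in DF-like and 5.805 CPM in BA-like cells remain possible on 10×. PE-like cells held it in 1 of 15 ss2 cells and in none of 42 10× cells. No class thus reached the level that *Pdgfa* had in muscle.

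*Pdgfd*, which encodes the D chain, was highest in LP-like cells among sums of at least 20 cells. Of smaller sums, 6 NP-like ss2 cells of E16.5 stood at 54.3 CPM, all from 1 cell, and 14 LM-like ss2 cells of E12.5 at 12.3 CPM. On 10× the LP-like interval of E14.5 (3.24 to 9.94 CPM) overlapped that of EP-like cells of E12.5 (0.469 to 13.99 CPM). LP-like cells held 28.5 and 36.75 CPM on ss2 at E14.5 and E16.5, in 31.85% of cells, and 5.93 and 5.28 CPM on 10× (14 and 2 UMIs). EP-like cells of E12.5 held 0.878 CPM on ss2 and 3.87 CPM on 10× (2 UMIs), and DF-like cells 1.26 and 1.065 CPM on ss2 and no UMI on 10×. In EM-like cells the ss2 levels were 2.08, 2.42 and 0 CPM and no UMI was found on 10×, which allows up to 1.19 CPM. The LP-like sum on ss2 came from many cells, as 12 cells held 50% of it. Of the 50 LP-like ss2 cells with *Pdgfd*, 32 also held its receptor gene *Pdgfrb*, where the separate shares would give 33.4.

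**Figure D4:**
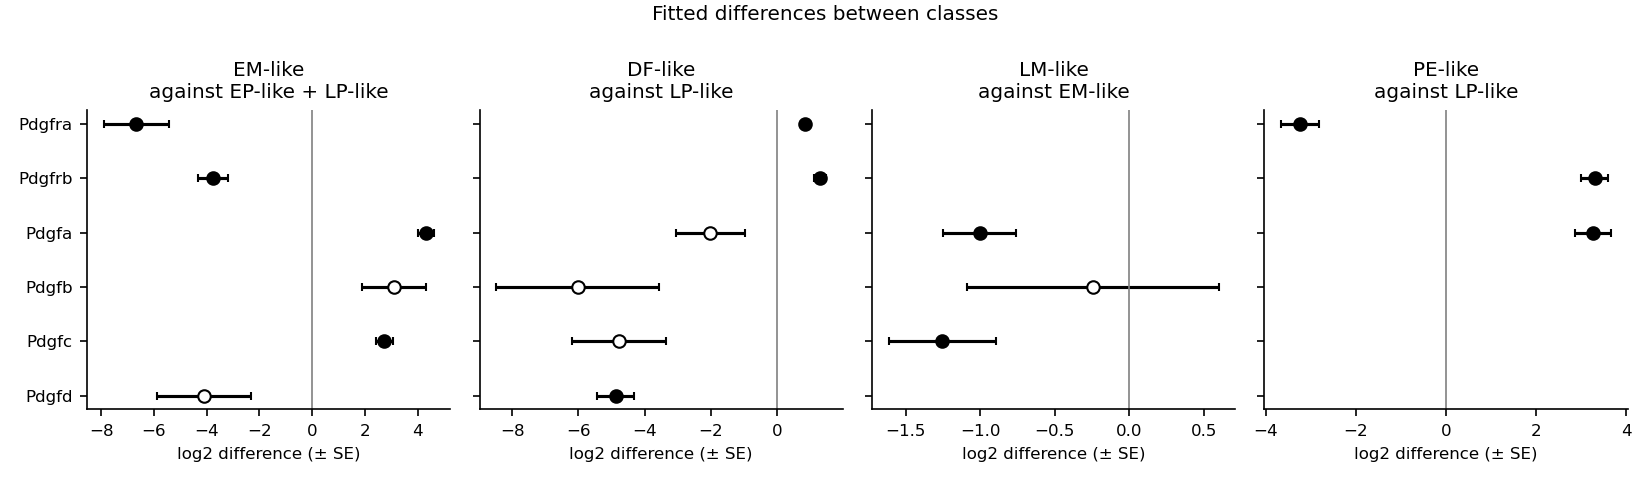
Fitted log2 differences of the 6 genes in the edgeR comparisons, with bars of 1 SE and with filled points where the adjusted p is under 0.05. Horizontal scales differ between panels, and a fitted difference against a class at 0 depends on the prior count.

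Within EM-like cells *Pdgfc* was highest at E12.5 on both platforms, as were both receptors on ss2. *Pdgfra* fell from 45.6 to 1.97 and 0.0597 CPM on ss2, and *Pdgfrb* from 67.8 to 3.95 and 4.16 CPM. Over all days 4 EM-like ss2 cells held 50% of the *Pdgfra* sum (20.5% in 1 cell) and 2 cells held 50% of the *Pdgfrb* sum (28.2% in 1 cell). The share of EM-like ss2 cells with *Pdgfra* was 44.7%, 9.09% and 5.08% on the 3 days, and that with *Pdgfrb* 25.5%, 7.27% and 5.08%. With the platform as a term, *Pdgfra* differed between E14.5 and E12.5 by a log2 difference of -4.32 (SE 0.887, adjusted p = 0.000112) and *Pdgfrb* by -4.25 (SE 0.796, adjusted p = 1.426e-05). *Pdgfc* was lower, with a log2 difference of -1.65 at E14.5 (SE 0.425, adjusted p = 0.00534) and of -1.84 at E16.5 (SE 0.445, adjusted p = 0.00102), and at E16.5 the receptors differed from E12.5 by -7.60 and -3.91 (adjusted p = 8.386e-06 and 0.000167). *Pdgfa* did not pass, at 0.66 (SE 0.376, adjusted p = 0.415) and 0.80 (SE 0.382, adjusted p = 0.184). All 6 members passed the filter and 3 were called on each day, against 4.44% of 12484 genes at E14.5 (2.89% higher and 1.55% lower, or 2.52% and 2.08% with the size factors of DESeq2) and 10.5% at E16.5.

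These calls on time needed the ss2 pools. Without the ss2 cells of E12.5 the adjusted p of *Pdgfra*, *Pdgfrb* and *Pdgfc* rose to between 0.593 and 1 on both days, and the share of all genes called at E14.5 fell from 4.44% to 0.102%. By DESeq2, *Pdgfra* was not called on either day (adjusted p = 0.224 and 0.597). Without the ss2 cells of E14.5 the 3 calls of E14.5 were lost, and without those of E16.5 the *Pdgfra* difference of E16.5 turned to 0.64 and *Pdgfrb* and *Pdgfc* lost their calls (adjusted p = 0.678 and 0.05316). The 6 sums gave this fit a common spread for all genes, and on 10× the receptor counts in EM-like cells were 0 to 5 UMIs per day. The EM-like cells of E12.5 were mostly 1 cluster (44 of 47 on ss2) and those of E14.5 mostly another (50 of 55 on ss2), on both platforms, while at E16.5 most 10× cells were of the first and all 59 ss2 cells of the second. In EM-like ss2 cells 6 mesenchymal genes summed to 2453, 2182 and 1938 CPM on the 3 days, the 8 EP-like markers to 121.1, 82.4 and 84.99 CPM and the 8 DF-like markers to 75.85, 34.95 and 16.6 CPM. On 10× the mesenchymal genes summed to 727, 582 and 905 CPM, and the part of these genes in the receptor values was not tested.

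Over progenitor-like sums, time and the change from EP-like to LP-like cells cannot be told apart. *Pdgfd* was higher than at E12.5 by a log2 difference of 4.74 at E14.5 (SE 0.931, adjusted p = 0.000185) and of 5.41 at E16.5 (SE 0.963, adjusted p = 1.643e-05), and *Pdgfc* was lower, with a log2 difference of -2.88 at E16.5 (SE 0.804, adjusted p = 0.00776). *Pdgfra* differed by 0.47 (SE 0.452) and 0.35 (SE 0.474) and *Pdgfrb* by -0.52 (SE 0.462) and -0.90 (SE 0.525), none of them called, though *Pdgfrb* at E16.5 passed without the 10× cells of that day (-1.74, adjusted p = 0.01133). Of 14152 genes 6.68% were called for E14.5 and 14.8% for E16.5, and of the 6 members 1 and 2. Without the ss2 cells of E12.5 no member was called (adjusted p of *Pdgfd* 1 at E14.5 and 0.899 at E16.5), without those of E14.5 the *Pdgfd* call of that day was lost (0.0559), and without those of E16.5 both calls of E16.5 were lost (0.282 for *Pdgfd* and 0.765 for *Pdgfc*). By DESeq2 the *Pdgfd* call of E14.5 was lost (adjusted p = 0.07185), and the *Pdgfc* call was lost at the coarser clustering, with the members allowed in the clustering and with all deposited cells (adjusted p = 0.234, 0.302 and 0.313).

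Whether the difference between EM-like and progenitor-like sums itself changed after E12.5 was tested as an interaction. It was larger after E12.5 for *Pdgfra*, by a log2 of -5.83 (SE 0.943, adjusted p = 0.00333), and for *Pdgfrb*, by -2.89 (SE 0.589, adjusted p = 0.0127), so both receptors were further below the progenitor-like level later on. For *Pdgfa* the change was 0.04 (SE 0.556) and for *Pdgfc* 0.09 (SE 0.639), neither called, and *Pdgfd* (-7.17, adjusted p = 0.105) passed only without the ss2 cells of E14.5 (adjusted p = 0.0003412). Of the 6 members 2 were called, against 4.87% of 13981 genes. Both calls were lost on either platform alone (adjusted p of 0.464 and 0.208 for *Pdgfra*) and without the ss2 cells of E12.5, where 0.008135% of all genes were called, and that of *Pdgfra* also by DESeq2 (adjusted p = 0.0972).

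N-like and progenitor-like sums shared 4 pools. *Pdgfra* was lower in N-like sums by a log2 difference of -5.47 (SE 0.671, adjusted p = 0.00345), and *Pdgfrb* by -9.45 (SE 2.55, adjusted p = 0.037). The size for *Pdgfrb* differed between platforms, at -2.80 on 10× alone, where N-like sums held 8 and 2 UMIs, and -12.59 on ss2 alone, where they held 3 counts each. *Pdgfd* passed as well (adjusted p = 0.0168) but was at 0 in all N-like sums, so that no fold is given. *Pdgfa* (-0.68, SE 0.404) and *Pdgfc* (-3.70, SE 1.38) had adjusted p of 0.264 and 0.0954, and *Pdgfc* passed by DESeq2 (adjusted p = 0.008786) and without the 10× cells of E12.5 (adjusted p = 0.0267). Of the 6 members 3 were called, against 24.5% of 14418 genes. Being at 0 in all N-like sums, *Pdgfd* could pass the filter on low counts only through the progenitor-like sums, so its call is no separate support. The *Pdgfrb* call was lost in 4 of 15 alternatives, among them those without the ss2 cells of E12.5 or of E14.5 and without the 10× cells of E14.5 (adjusted p = 0.133, 0.135 and 0.0762, at -6.80, -6.62 and -10.2), and that of *Pdgfd* without the 10× cells of E14.5 (adjusted p = 0.0555) and with the ss2 pools alone (adjusted p = 0.06984). NP-like and N-like sums shared 3 pools, where *Pdgfa* differed by 0.15 (SE 0.817, adjusted p = 0.949) and *Pdgfc* by 3.99 (SE 1.81, adjusted p = 0.261), and these were the 2 members past the filter, of which 0 were called in edgeR (0 also at an unadjusted p under 0.05), against 5.48% of 9941 genes. The lowest adjusted p of *Pdgfc* over its 9 alternatives was 0.0795.

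BA-like and LP-like cells shared 1 pool, 10× at E16.5, and their UMIs are compared as a ratio with no replicate check. This depended on the cell filter, which among the ss2 days removed cells of E16.5 only. With all deposited cells kept, the BA-like cluster held several times as many ss2 cells, above the minimum of 20 for a sum. The ss2 values of BA-like cells given here are thus those of the few that passed the filter. For *Pdgfra* the ratio of BA-like to LP-like CPM was 0.0912 (exact conditional interval 0.0235 to 0.256), from 4 against 33 UMIs. For *Pdgfrb* it was 0 (0 to 0.271), from 0 against 12 UMIs. Both intervals lay below 1. The ratio was 1.00 (0.305 to 3.51) for *Pdgfa*, from 8 against 6 UMIs, and 1.88 (0.308 to 19.75) for *Pdgfc*, from 5 against 2 UMIs, so no difference was detectable at this depth. On ss2, 14 BA-like cells of E16.5 stood at 3.37 CPM for *Pdgfra*, 3.29 CPM for *Pdgfrb*, 8.47 CPM for *Pdgfa*, 10.0 CPM for *Pdgfc* and 6.00 CPM for *Pdgfd*.

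In the bulk libraries of Cd36+ cells, a low level in a mixture can be few cells or little RNA per cell, which cannot be told apart. *Pdgfa* was at 11.4 and 15.9 CPM in the libraries, *Pdgfc* at 8.61 and 12.4 CPM, *Pdgfra* at 6.03 and 8.41 CPM, *Pdgfd* at 5.35 and 3.43 CPM and *Pdgfrb* at 2.57 and 1.73 CPM. *Pdgfb* had 2 and 3 reads, at or under the limit of 3 counts. Absence of Pdgfra protein was part of the gate, so the *Pdgfra* level is a description. Adipocyte genes were high (*Fabp4*, a fatty acid carrier, at 4576 and 3935 CPM). Of the 8 EM-like markers *Itm2a* was at 222.5 and 172.6 CPM, and the others, *Pax7* and *Myod1* among them, were at most 1.37 CPM. Of the 8 pericyte-like markers *Cspg4* was at 51.7 and 70.9 CPM and the others were at most 8.29 CPM. Of the 8 endothelial markers *Pecam1* was at 79.1 and 104.8 CPM and the other 7 ran from 0.789 to 9.17 CPM.

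Levels of different genes are comparable only per length, here as ss2 CPM per kilobase of exon over all days. The length was the union of all annotated exons, 10024 bases for *Pdgfra* and 5478 for *Pdgfrb*. It is not that of the transcripts expressed, so orders between genes depend on this choice. In EM-like cells *Pdgfa* stood at 53.95 CPM per kilobase, *Pdgfc* at 15.9 and *Pdgfb* at 2.93, with *Pdgfrb* at 2.71, *Pdgfra* at 0.858 and *Pdgfd* at 0.447. At E12.5 the order was another, with *Pdgfc* at 48.1, *Pdgfa* at 37.8 and *Pdgfrb* at 12.4. In LM-like cells *Pdgfa*, *Pdgfc* and *Pdgfb* stood at 20.1, 7.37 and 2.35 over all days, but at E12.5 *Pdgfc* (28.7) was above *Pdgfa* (12.8), and at E16.5 *Pdgfb* (5.74) was above *Pdgfc* (1.42). In DF-like cells *Pdgfra* and *Pdgfrb* were close, at 52.2 and 49.98 CPM per kilobase, whereas EP-like cells held more *Pdgfrb* (46.3) than *Pdgfra* (30.003) and LP-like cells more *Pdgfra* (34.6) than *Pdgfrb* (22.8). The highest ligand of LP-like cells was *Pdgfd* at 10.2 and of EP-like cells *Pdgfc* at 8.61. In PE-like cells *Pdgfrb* stood at 196.02 and *Pdgfa* at 39.2. The plates of 1 day gave a further view of the spread, since *Pdgfa* in EM-like cells ran from 151.8 to 246.4 CPM over 4 plates of E16.5 and *Pdgfra* in EP-like cells from 166.6 to 607.9 CPM over 6 plates of E12.5, so the receptor orders within EP-like and LP-like cells are not tested differences.

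Among 26 other genes of the pathway (ligand processing, co-receptors, signaling and receptor shutdown), between 2 and 7 were called in each comparison, and the share of all genes called in each direction is given with each count. In EM-like against progenitor-like sums 0 of 25 tested were higher and 7 lower (of all genes 10.5% and 15%), with a median log2 difference of -0.48 against -0.16 over all genes. The 4 with the smallest adjusted p were the co-receptors *Nrp1* (-5.16, SE 0.334) and *Nrp2* (-5.77, SE 0.631), the adaptor *Shc1* (-1.49, SE 0.177) and the scavenger receptor *Lrp1* (-2.78, SE 0.353). In DF-like against LP-like sums 2 were higher and 1 lower of 25 (5.24% and 7.36%), with *Plat*, the protease tPA that activates PDGF-C, lower, with a log2 difference of -3.43 (SE 0.399) and the kinase subunit *Pik3r1* higher, at a log2 difference of 1.45 (SE 0.291). In PE-like against LP-like sums 3 were higher and 4 lower of 23 (4.87% and 13.6%), with the urokinase receptor *Plaur* lower, with a log2 difference of -3.14 (SE 0.502) and *Pik3r1* higher, at a log2 difference of 1.74 (SE 0.369). In progenitor-like sums 4 were higher and 0 lower of 25 at E14.5 (5.76% and 0.926%), and at E16.5 5 were higher and 2 lower (10.1% and 4.66%), led by *Plaur* (7.48, SE 0.803) and by *Sparc* (3.69, SE 0.459), which encodes a matrix protein that binds PDGFs. In EM-like sums 1 was higher and 2 were lower at E14.5 (2.89% and 1.55%) and 2 and 2 at E16.5 (5.59% and 4.87%), with *Plat* lower on both days (-2.09, SE 0.602, and -2.67, SE 0.658). LM-like against EM-like sums gave 1 higher and 3 lower of 23 (11.3% and 12.6%), N-like against progenitor-like 1 and 4 of 25 (10.6% and 14%), NP-like against N-like 0 and 2 of 21 (1.16% and 4.33%), and the interaction 0 and 4 of 25 (1.83% and 3.04%).

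The list of 8 relatives, which are VEGF-family ligands and kinases of the same receptor class, had 0 higher and 3 lower of 7 in EM-like against progenitor-like sums (of all genes 10.5% and 15%), namely *Vegfd* (-2.33, SE 0.383), *Vegfa* (-1.40, SE 0.38) and *Vegfc* (-2.34, SE 0.758). In N-like against progenitor-like sums 1 was higher and 4 lower of 7 (10.6% and 14%), and the gene that was higher was *Kit* (4.26, SE 0.419), the receptor of stem cell factor. In LM-like against EM-like sums 1 of 3 was lower (12.6%), *Pgf*, and in PE-like against LP-like sums 3 of 5 were lower (13.6%). In NP-like against N-like sums 1 of 3 was lower (4.33%), again *Kit*. Over time 1 of 7 was higher in progenitor-like sums on both days (*Pgf*, 2.20 and 2.88, against 5.76% and 10.1% of all genes) and 1 of 6 lower in EM-like sums at E16.5 (*Kit*, -4.09, against 4.87%). In edgeR 0 of 7 were called in DF-like against LP-like sums, 0 of 6 in EM-like sums at E14.5 and 0 of 7 in the interaction, with 3, 1 and 2 at an unadjusted p under 0.05.

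Over 30 sums of a class and pool, the genes whose log2(CPM + 1) ran most like a member were found among 9592 genes. For *Pdgfra* these were *Ptges* (Pearson r = 0.935), *Egfl6* (0.925) and *Wnt11* (0.922), and for *Pdgfrb* *Rarg* (0.885), *Ednra* (0.884) and *Tgfb1i1* (0.871). For *Pdgfa* they were *Acta2* (0.789), *Fitm1* (0.787) and *Eef1g* (0.785), for *Pdgfb* *Myod1* (0.820), *Erbb3* (0.806) and *Pitx3* (0.8015), and for *Pdgfc* *Erbb3* (0.787), *Fgfrl1* (0.768) and *Eya4* (0.761). For *Pdgfd* they were *Scara5* (0.8905), *Thbs4* (0.8695) and *Prss35* (0.839). The sums share platforms and depth, and *Myod1* and *Fitm1* were also among the markers that named the EM-like clusters.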

How the data were processed

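Sorted YFP+ cells of *Pax7*-traced mouse embryos were profiled by 10× and Smart-seq2 on 3 embryonic days (E12.5, E14.5, E16.5). The deposited 10× values are UMI counts per gene and cell from Cell Ranger, and the ss2 values are expected counts that the authors estimated with kallisto 0.44.0 and summed per gene with tximport. The deposited bulk values are whole-number read counts, whose aligner and counter are not given in the sources used here. None are normalized. Of the bulk columns, 16 had names that fit 2 samples each and were not used, so none of the planned bulk comparisons was run.

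Cells with a YFP count above 0, at most 8% mitochondrial counts, at least 4000 genes (ss2) and at most 15000 UMIs (10×) were kept. Clusters came from Seurat 5.3.0 (2000 variable genes, 30 principal components, resolution 0.8, platforms integrated) in R 4.3.3, with 40 genes, the members and both pathway lists among them, left out of the variable genes. A cluster was named by its highest mean marker z-score (at least 0.25, at least 3 markers found in at least 5% of cells), and this minimum and the reading of the leading genes were chosen after the data were seen. Called doublets were 8, 8 and 7 cells per 10× library and were kept. Counts of cells were summed per class and pool, at least 20 cells each, or 10 for pericyte-like cells, and ss2 sums were rounded to whole numbers. Sums were tested with edgeR 4.0.16 (filterByExpr, TMM, quasi-likelihood test, pool as block or platform as term, Benjamini-Hochberg over all genes tested, adjusted p under 0.05). Embryos were pooled, so p-values measure only the spread between pools, which may be technical. The test was also run on simulated counts with 200 changed genes. These counts differed between pools and platforms in depth only, so they do not show how the test fares with other differences between pools or platforms. For equal depth, cells were thinned to 1000 UMIs or 100000 ss2 counts. Where no count was found, the level that 3 counts would give is printed as the limit.

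The members, lists and comparisons were chosen with earlier results of these data known. The members are named in every comparison, of each list up to 4 called genes with the smallest adjusted p, and per member the 3 genes with the highest correlation. Alternatives were resolutions 0.4 and 1.2, members allowed in the clustering, all deposited cells, doublets removed, 1 platform alone, DESeq2 1.42.0 or its size factors, no filter on low counts, a lower minimum of cells and each pool left out.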

Additional observations from a re-analysis of the deposited data

Results flagged for a closer look

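In EM-like against progenitor-like sums the difference changed after E12.5 by a log2 of -5.83 for *Pdgfra* and of -2.89 for *Pdgfrb* in the interaction test of edgeR (adjusted p = 0.00333 and 0.0127). The calls were lost on either platform alone and without the ss2 cells of E12.5.

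A far value was looked for in 33 groups. These were the ss2 plates of 1 gene, class and day, or the EM-like minus progenitor-like differences of 1 gene over the 6 pools. In 4 of the 33 groups 1 value lay far from the others, all of them over the 4 ss2 plates of E16.5. *Pdgfrb* in EM-like cells was at 23.1 CPM on 1 plate against 0 on the next, *Pdgfa* in DF-like cells at 18.4 against 1.27 CPM, *Pdgfd* in DF-like cells at 4.89 against 0 CPM, and *Pdgfb* in LP-like cells at 2.80 against 0 CPM. The limit used sets apart about 1 in 20 groups if values are normally distributed. Where the other plates are all at 0, any count on 1 plate is set apart. That rate thus does not hold for the *Pdgfrb*, *Pdgfd* and *Pdgfb* groups named here.

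The bulk Cd36+ libraries entered no comparison. Above the limit of 3 counts they held *Pdgfa* at 11.4 CPM in replicate 1, *Pdgfc* at 8.61 CPM, *Pdgfra* at 6.03 CPM, *Pdgfd* at 5.35 CPM and *Pdgfrb* at 2.57 CPM.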

How the results depend on the processing

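Over all alternatives 731 values of single members kept their direction and side of the threshold, 44 lost their call, 12 gained one and 33 turned, and of the counts of called genes 120 stayed within 1.5 times and 45 did not. Of the shares of cells with a count 587 stayed within the interval and 61 did not, 44 of these after thinning, and all 25 BA-like ratios stayed within theirs. The causes of the changes below were not tested.

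Genes called are given here as the percent of the genes that each fit tested, where the count of called genes moved by more than 1.5 times. With 10× pools alone, where fewer genes were tested and fewer called in each comparison named here, it went from 25.5 to 33.7% for EM-like against progenitor-like, from 12.6 to 13.6% for DF-like against LP-like, from 23.9 to 20.9% for LM-like against EM-like, from 5.48 to 4.09% for NP-like against N-like, from 18.5 to 12.3% for PE-like against LP-like and from 4.87 to 1.84% for the interaction. With ss2 pools alone it went to 0.855% for EM-like against progenitor-like, 3.43% for DF-like against LP-like, 7.25% for LM-like against EM-like, 0.0136% for the interaction and from 24.5 to 5.67% for N-like against progenitor-like. DESeq2 gave 37.3% for N-like against progenitor-like, 9.62% for NP-like against N-like, 8.62% for PE-like against LP-like, and 2.18% and 6.26% for EM-like cells at E14.5 and E16.5 against E12.5, where edgeR gave 4.44% and 10.5%. NP-like against N-like also gave 9.23% with all deposited cells, 10.4% with the lower minimum of cells, 7.62% with members allowed in the clustering and 6.91% with no filter, PE-like against LP-like 23.4% with no filter, and the interaction 7.58% at resolution 1.2. With 1 pool left out in turn it ran from 13.96 to 41.4% for EM-like against progenitor-like, 6.17 to 17.4% for DF-like against LP-like, 14.3 to 22.4% for LM-like against EM-like, 8.73 to 23.1% for N-like against progenitor-like, 1.07 to 9.83% for NP-like against N-like, 12.3 to 13.2% for PE-like against LP-like, 0.00813 to 11.5% for the interaction, 0.102 to 6.65% and 0.768 to 12.1% for time in EM-like cells, and 0.125 to 11.1% and 1.78 to 19.2% for time in progenitor-like cells.

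None of the values that turned was called after the turn. In the interaction *Pdgfa* turned to -0.082 with the size factors of DESeq2, -0.135 with all cells, -0.362 with members allowed in the clustering, -0.062 at resolution 0.4 and -0.455 with ss2 pools alone, and ran from -0.759 to 1.562 with 1 pool left out in turn. *Pdgfc* there turned to -0.011 in DESeq2, -0.035 with its size factors, -0.815 with all cells, -0.827 with members allowed, and -0.655 and -0.077 at resolutions 0.4 and 1.2, and ran from -0.663 to 0.882 with 1 pool left out, as *Pdgfd* did from -13.92 to 3.684. For time in EM-like cells, with 1 pool left out, *Pdgfb* ran from -0.607 to 2.595 at E14.5 and from -1.494 to 1.696 at E16.5, and *Pdgfra* at E16.5 from -9.247 to 0.644, which was its value without ss2 E16.5. *Pdgfd* at E14.5 turned to -0.432 in DESeq2, -0.091 with members allowed and -0.039 at resolution 1.2. For time in progenitor-like cells *Pdgfa* ran from -0.601 to 1.173 at E14.5 and from -0.391 to 1.456 at E16.5, and at E16.5 *Pdgfb* ran from -12.6 to 0.646, *Pdgfra* from -0.229 to 0.865 and *Pdgfrb* from -1.737 to 0.195, and *Pdgfb* turned to 3.316 at resolution 1.2. In NP-like against N-like *Pdgfa* ran from -0.633 to 0.75.

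For the bulk data, no paired analysis was possible because the columns that carry replicate numbers could not be tied to samples, while comparisons of classes held the pool as a block throughout, and the planned bulk comparisons and their alternatives were not run. The comparisons of time were not run on 1 platform alone, which leaves no spread. Levels near 1 UMI per class on 10× are limited by depth.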

Other observations

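The 21 cells of the unnamed cluster, whose leading genes included *Col2a1*, *Col9a3* and *Sox9*, known as genes of cartilage, held both receptor and ligand RNA. Its 8 ss2 cells stood at 183.2 CPM for *Pdgfra*, found in 6 cells, at 41.4 CPM for *Pdgfrb* and at 157.1 CPM for *Pdgfc*, of which 83.4% came from 1 cell. Its 13 10× cells stood at 111.7 CPM for *Pdgfa* (8 UMIs, 48.2 to 220 CPM), 13.96 CPM for *Pdgfra* and 27.9 CPM for *Pdgfc*. No test was run on these few cells.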
